A study of Arabidopsis thaliana with 7 samples.

Results

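The serine carboxypeptidase-like (SCPL) genes of Arabidopsis thaliana were examined for peaks of ZF-DDR5 chromatin immunoprecipitation followed by sequencing (ChIP-seq). Members were the protein-coding genes whose symbol in the RefSeq gene table of assembly TAIR10.1 starts with SCPL and a digit, in any case. They numbered 49 of the 27444 protein-coding genes on the 5 nuclear chromosomes, and symbols are spelled here as in that table. The family was selected on peak counts of this same list, so its counts are a description and carry no test. The series has 7 samples of whole 12-day seedlings, namely 2 of ZF-DDR4, 2 of ZF-DDR5, 2 of Col0 and 1 further Col0 whose title, like those of ZF-DDR5, carries the mark g3. ZF-DDR4 seedlings express a DDR4-FLAG-ZF fusion, from independent homozygous lines per the labels' protocols. ZF-DDR5 is taken here as the matching zinc finger fusion of DDR5, and the sources used here do not give its promoter or number of lines. Col0 is the untransformed wild type. The labels name an anti-FLAG antibody for the ZF-DDR4 samples and their Col0, and none for the ZF-DDR5 samples. Only the peak list of ZF-DDR5 replicate 1 was analysed. It holds 9999 intervals and no score or counts, so depth is unknown. There is no replicate error, and whether Col0 shares any peak was not tested.

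SCPL proteins share the fold and the serine, aspartate and histidine catalytic residues of serine carboxypeptidases, enzymes that trim amino acids from the C-terminal end of proteins. In plants a branch of the family has become acyltransferases, which move an acyl group from a glucose ester such as sinapoylglucose to another molecule. In Arabidopsis these enzymes make sinapoylmalate, a leaf sunscreen against ultraviolet light, and sinapoylcholine, a seed ester. The genes SCPL1 to SCPL19 are counted here as acyltransferase-like, and many of them stand side by side on the chromosome. DDR5 is related to DDR4, a DDT-domain protein, a kind of protein known to pair with ISWI remodellers, which move nucleosomes. The peaks here are those of ZF-DDR5, taken as a zinc finger fusion. Whether they mark sites of DDR5 itself or of the zinc finger was not tested.

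Few SCPL genes carried a ZF-DDR5 peak, and no acyltransferase-like member carried one in its body. Each peak was represented by its centre. A centre lay in the body of 8 of the 49 genes, or 16.3% (Wilson 95% interval 8.51% to 29.0%, counting error only), against 26.9% of all protein-coding genes. This and the later Wilson intervals treat the genes as independent. Many members stand side by side in the same stretch of chromosome, so the intervals may be too narrow. SCPL genes are longer than most, with a median of 3071 bp (range 1603 to 4622 bp) against 2078 bp over all protein-coding genes. Longer genes hold centres more often, so each member was set beside the 200 other protein-coding genes nearest to it in length. The shares among those genes sum to 17.1 of 49, or 34.9%. The SCPL count was 0.468 of that sum. Counting also centres within 1000 bp of either gene edge gave 11 of 49 genes (22.4%, Wilson interval 13.0% to 35.9%), against 36.5% of all protein-coding genes. The corresponding sum for genes of like length was 21.5, a ratio of 0.512. A peak overlapped the body by at least 1 bp in 8 of 49 members, against 28.2% of all protein-coding genes. Since the family was picked with these counts known, nothing is read from the distance between them.

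**Figure D1:**
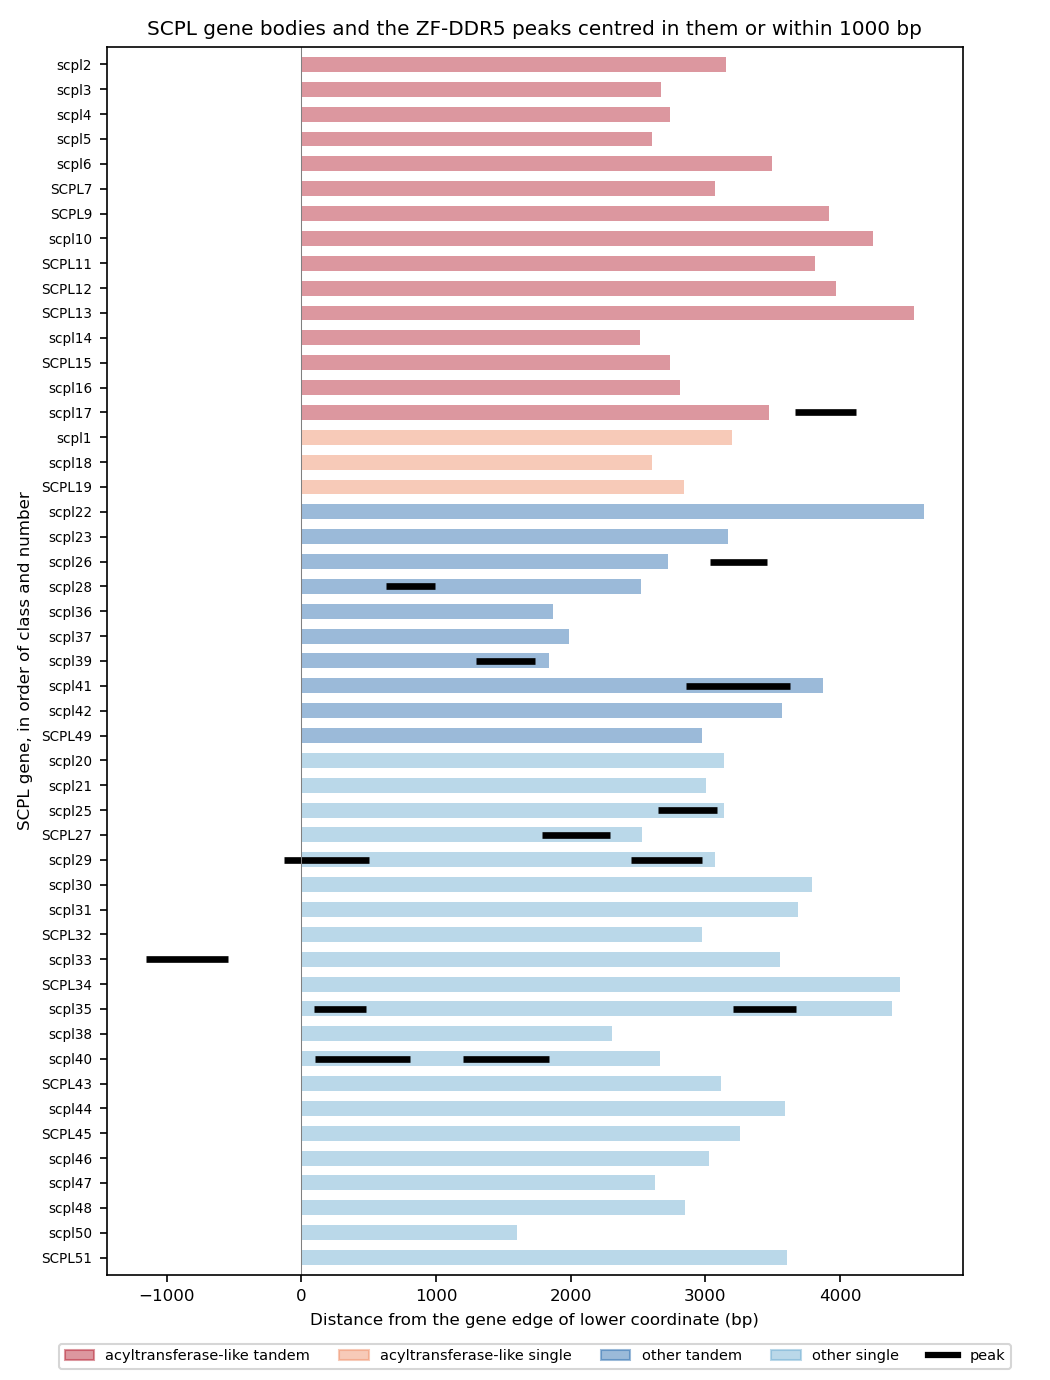
Each bar is the body of 1 of the 49 SCPL genes, drawn to scale in bp from its edge of lower coordinate and coloured by class; black lines are ZF-DDR5 peaks centred in the body or within 1000 bp of it. The 11 peaks in bodies fall in 8 genes, none of them among the 18 acyltransferase-like members in red and orange, where scpl17 has a peak beyond its edge.

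The acyltransferase-like branch was without a body centre throughout. It counts 18 members under the symbol rule, of 2516 to 4552 bp. A centre lay in 0 of them (Wilson interval 0% to 17.6%), against 26.9% of all protein-coding genes. The sum for genes of like length was 6.5. Of the 18 members, 15 lie in tandem clusters, meaning that another SCPL gene lies at most 25 kb away. They held 0 centres (Wilson interval 0% to 20.4%) against a sum of 5.45. The 3 single ones, scpl1, scpl18 and SCPL19, also held 0 (Wilson interval 0% to 56.1%), against 1.05. SCPL19, also called SNG2, encodes the enzyme that makes sinapoylcholine. Its nearest centre lay 12683 bp from its edge. With the flanks of 1000 bp counted, 1 of the 18 genes had a centre, against 36.5% of all protein-coding genes and a sum of 7.94. That gene was scpl17, which takes part in the acylation of glucosinolates. The centre of its peak, at chr3:3894825-3895277 (TAIR10, 453 bp wide), lay 420 bp beyond its higher edge and inside the neighbouring gene AT3G12210. The same peak lay 1156 bp from scpl16, just outside the flank, and scpl1 had a wide peak of 1522 bp centred 1551 bp beyond its higher edge.

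The remaining 31 members held all 11 body centres. Of them 8 (25.8%, Wilson interval 13.7% to 43.2%) had at least 1 body centre, against 26.9% of all protein-coding genes. The sum for genes of like length was 10.6 (34.2%), a ratio of 0.754. With flanks the count was 10 (32.3%), against 36.5% of all protein-coding genes and a sum of 13.5 for genes of like length. In tandem clusters 3 of 10 had a body centre, against 3.4 for genes of like length. Single genes had one in 5 of 21 cases, against 7.21. Taking both branches together, 3 of 25 tandem members and 5 of 24 single members had a body centre, against sums of 8.85 and 8.26. Of those 25 tandem members 15 are acyltransferase-like, against 3 of the 24 single ones. Position in a cluster and branch of the family thus overlap in part, since 10 of the 25 clustered members belong to the other branch. The classes that separate them are small, with 3 of 10 clustered members of the other branch and 0 of 3 single acyltransferase-like genes. No difference between these classes was tested.

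**Figure D2:**
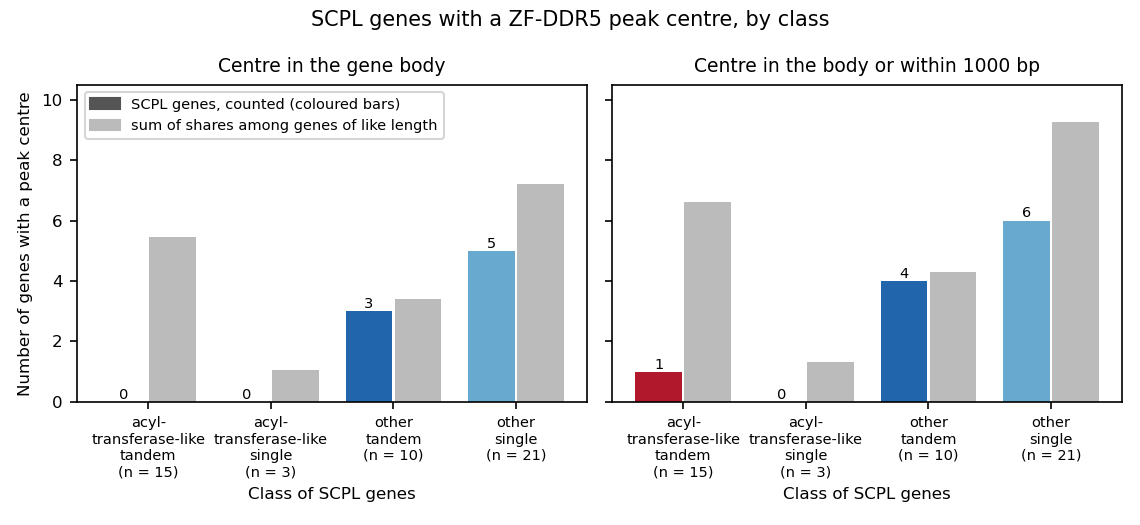
Coloured bars give the number of SCPL genes with a ZF-DDR5 peak centre in each class and grey bars the sum of the shares among the 200 protein-coding genes nearest in length to each member; left, centre in the body; right, centre in the body or within 1000 bp. The acyltransferase-like tandem genes stand at 0 of 15 and 1 of 15, beside 5.45 and 6.61.

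By symbol number, a split chosen after the values were seen, all 8 genes with a body centre fell between SCPL22 and SCPL46. Of the 24 members in that range, 33.3% had a body centre, against 35.1% for genes of like length. The pair scpl20 and scpl21 had 0 of 2, against a sum of 0.695, so little can be read from it. The numbers 47 to 51 had 0 of 5, against a sum of 1.5. This last range includes SCPL49, which the gene table also calls CARBOXYPEPTIDASE Y, a vacuolar protease in yeast. Its nearest centre lay 22447 bp away.

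3 single genes held a pair of centres each. scpl40 had peaks at chr3:23438498-23439200 (703 bp) and chr3:23439600-23440236 (637 bp), the second also within the non-coding RNA gene AT3G09965. scpl29 had peaks at chr4:15003021-15003647 (627 bp), which crosses the lower edge of the gene, and chr4:15005591-15006118 (528 bp). These lay near its opposite ends, with centres 188 bp and 361 bp from the nearest edge. scpl35, a long member at 4384 bp, had peaks at chr5:2657148-2657531 (384 bp) and chr5:2660256-2660727 (472 bp). At least 2 body centres were thus found in 3 of 49 members (6.12%), against 3.88% of all protein-coding genes, and against a sum of 2.83 for genes of like length.

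The other 5 genes held 1 centre each. In scpl25 the peak lay at chr3:373319-373754 (436 bp) and in SCPL27 at chr3:2554184-2554688 (505 bp), both toward the higher edge. scpl41 held the widest of the 11, at chr5:16883447-16884224 (778 bp, rank 1970 of 9999 by width). The narrowest, 366 bp, lay in scpl28 at chr2:15034667-15035032. scpl39 is the shortest member with a centre, at 1840 bp, and its peak at chr3:19300608-19301045 measured 438 bp. The next shortest with a centre were scpl28 and SCPL27, at 2520 and 2528 bp. The longest members without one were scpl22, SCPL13 and SCPL34, at 4622, 4552 and 4445 bp, lengths at which 45.5%, 45.0% and 43.5% of genes of like length had a body centre. Members with a centre measured 1840 to 4384 bp and those without 1603 to 4622 bp, so the groups overlap in length.

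**Figure D3:**
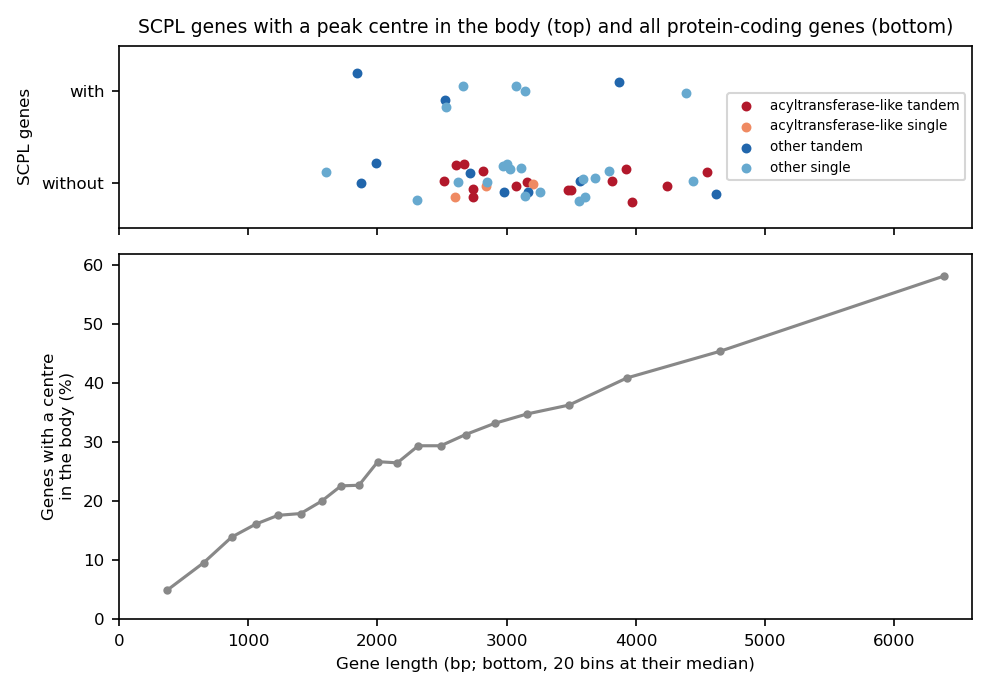
Top, each point is 1 SCPL gene placed by its length in bp and coloured by class, with or without a ZF-DDR5 peak centre in its body (points are spread vertically for legibility). Bottom, the percent of protein-coding genes with a body centre in 20 bins of equal size by length, which climbs to 58.2% in the bin of the longest; SCPL genes without a centre span the whole length range of the family, 1603 to 4622 bp.

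The 11 body peaks came from 8 genes, 3 of which gave a pair each. Their median width was 505 bp (range 366 to 778 bp), against 492 bp for the 8493 peaks centred in protein-coding genes. The distance from the centre to the nearest edge had a median of 453 bp (188 to 1142 bp), against 629 bp for every centre in a protein-coding gene. Of the 11 centres, 7 lay at most 500 bp from an edge, against 3224 of the 8493. The 8493 include genes far longer than any SCPL gene, with centres up to 11323 bp from an edge, and the difference was not tested. The gene table gives no strand, so which edge is the start of transcription was not analysed here.

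A further 2 members had a centre only in a flank, besides scpl17. For scpl26 it lay 525 bp beyond the higher edge, in the peak chr2:15040612-15041034, and for scpl33 851 bp beyond the lower edge, in the peak chr3:5854476-5855085. Each of these centres fell inside a neighbouring protein-coding gene, AT2G35790 for scpl26 and RFC3, a replication factor C subunit, for scpl33. All 3 flank-only centres of the family were therefore centred in other genes. The 38 members with no centre in the body or flanks include the rest of the acyltransferase-like genes.

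The 25 clustered members form 8 tandem clusters. On chromosome 1, scpl6, scpl3, scpl5, scpl2 and scpl4 span 16157 bp with no centre, within a stretch of 29870 bp between neighbouring centres. That is well above the median spacing of 6884 bp between neighbouring centres, and 8.21% of the 9994 spacings are at least as long. Of the 61 non-SCPL protein-coding genes within 100 kb of this cluster, 34.4% had a body centre. On chromosome 2, SCPL12, SCPL11, SCPL13, scpl10 and SCPL9 span 49046 bp, also with no centre. SCPL12 is joined to this cluster only by distance, with other genes between it and SCPL11. scpl10 encodes an enzyme that adds sinapoyl groups to anthocyanins, and SCPL9 one that joins sinapoyl groups into disinapoylglucose. The span holds 7 further protein-coding genes, 0 of them with a body centre, and lies in a stretch of 83306 bp free of centres, a length reached by 73 of the 9994 spacings (0.73%). Of 60 other protein-coding genes within this second span or 100 kb of it, 16.7% had a body centre. Those 60 include the 7 inside the span, of which 1 is the family gene SNG1. A long stretch is more likely to hold a cluster of genes than a short one, so these ranks describe the sites and are not a test.

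On chromosome 3, scpl17, scpl16, scpl14 and SCPL15 span 13833 bp with 1 centre, the one in AT3G12210 between scpl17 and scpl16. Of 63 other genes within this span or 100 kb of it, AT3G12210 among them, 36.5% had a body centre. SCPL49 and SCPL7, also on chromosome 3, are paired only by distance, with other genes between them, and their span of 17293 bp held no centre. Among clusters of other members, scpl22 and scpl23 had none in 8319 bp, within a stretch of 40348 bp free of centres. The pair scpl28 and scpl26, the trio scpl36, scpl37 and scpl39, and the pair scpl41 and scpl42 had 1 centre each within their spans, in scpl28, scpl39 and scpl41. Other genes also lie between scpl41 and scpl42. Copies in a tandem cluster can resemble one another closely, and no sequence was used here, so whether reads map uniquely to each copy was not tested.

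**Figure D4:**
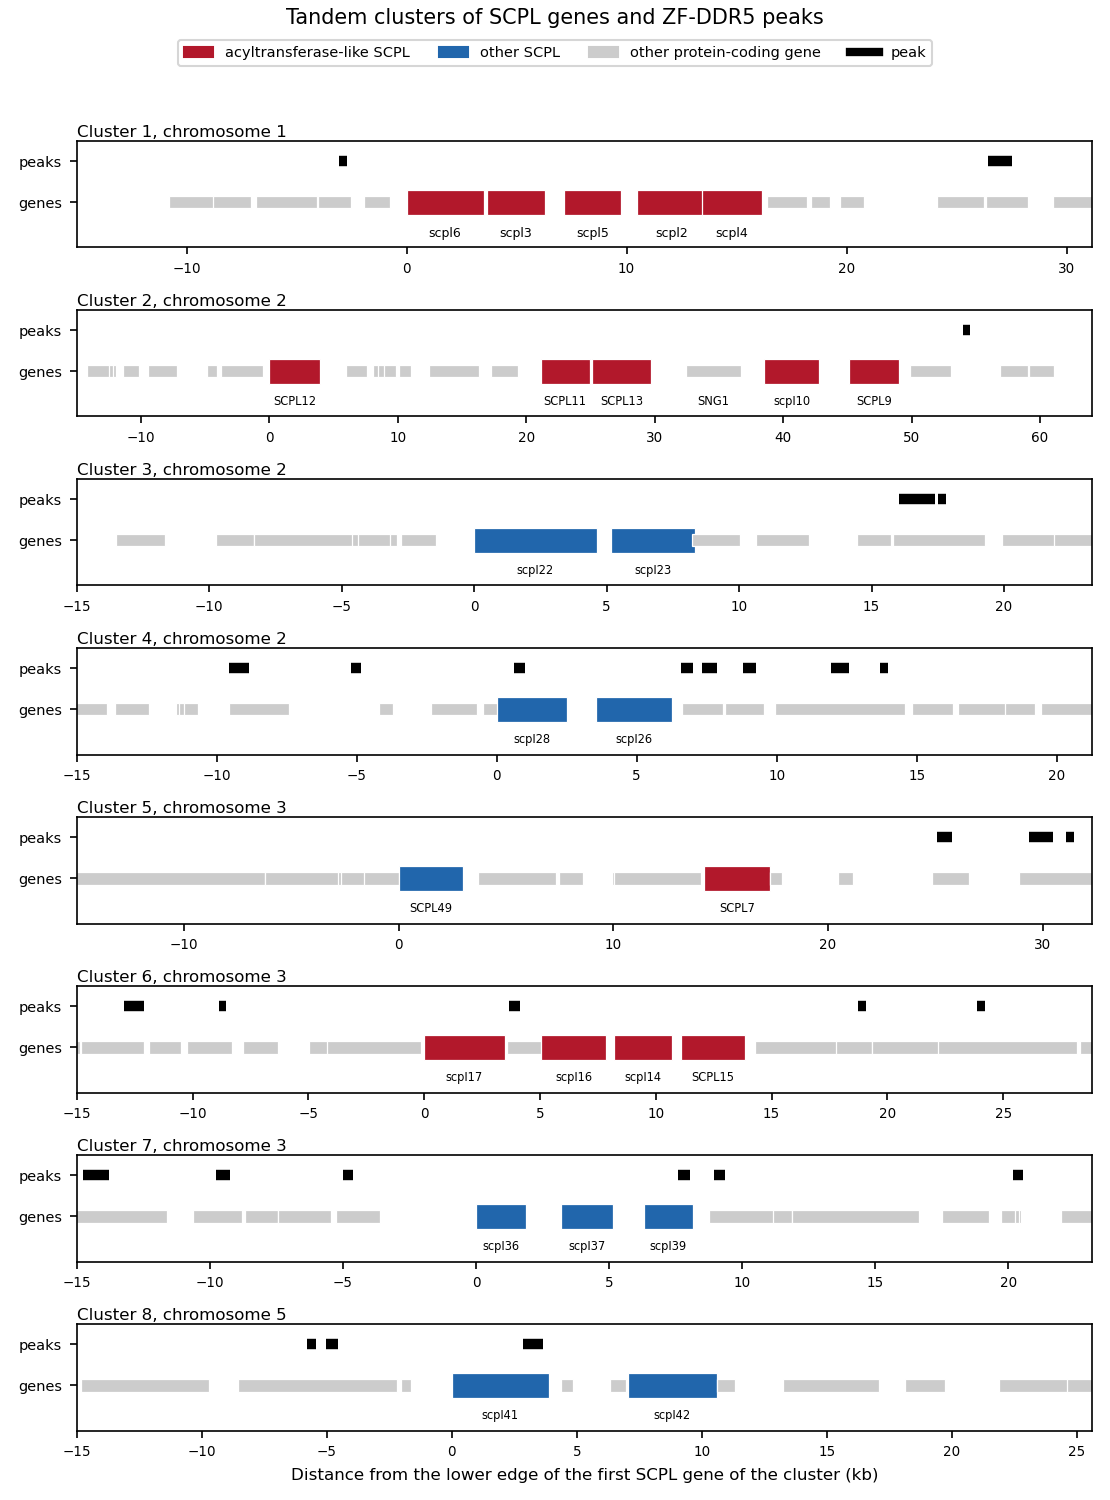
The 8 tandem clusters with 15 kb on either side, to scale in kb from the lower edge of the first SCPL gene; red and blue boxes are SCPL genes, grey boxes other protein-coding genes and black marks ZF-DDR5 peaks. Clusters 1 and 2, with 5 acyltransferase-like members each, contain no peak, and neither do clusters 3 (scpl22 and scpl23) and 5 (SCPL49 and SCPL7), whereas peaks stand in scpl28, scpl39 and scpl41 and, in the acyltransferase-like cluster 6, between scpl17 and scpl16.

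Distance to the nearest centre uses the same centres and is 0 for every gene with a body centre, so it is no separate support. Members of 1 cluster also share stretches free of centres. The median distance was 7328 bp over the 18 acyltransferase-like members (range 420 to 29364 bp) and 3752 bp over the other 31 (0 to 22447 bp). It was 2345 bp over all protein-coding genes and 1928 bp over the 16099 non-SCPL genes within the length range of the family. SCPL11, at 29364 bp, was the farthest. Neighbouring genes did carry peaks, but unevenly between clusters. Averaged over the acyltransferase-like members, 27.0% of the non-SCPL protein-coding genes within 100 kb had a body centre, and over all 49 members 28.3%. Of all protein-coding genes, 26.9% had one. Members of 1 cluster share neighbours, which these means count more than once. For clusters with no centre in their span, the share was 34.4% (scpl6 to scpl4), 16.7% (SCPL12 to SCPL9), 22.9% (scpl22 and scpl23) and 22.7% (SCPL49 and SCPL7). Around the other clusters it ran from 31.1% to 41.4%. The neighbours were not matched on length, and no difference between clusters was tested. 3 members, scpl38, SCPL43 and scpl44, lie in gene-poor windows of 500 kb (protein-coding genes under 50% of the median window), and 0 of them had a body centre, against a sum of 1.0 for genes of like length. By chromosome, body centres were found in 0 of 11 members on chromosome 1, against a sum of 3.64 for genes of like length, and in 1 of 13 on chromosome 2, against 4.89. Chromosome 3 had 4 of 15 against 4.84, chromosome 4 had 1 of 3 against 1.06, and chromosome 5 had 2 of 7 against 2.68.

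2 family genes carry another symbol and fell outside the rule. SNG1, listed with the synonym SCPL8, makes sinapoylmalate and lies inside the chromosome 2 cluster between SCPL13 and scpl10. Like its neighbours there it had no centre in its body or within 1000 bp. BRS1, listed as SCPL24, is a secreted carboxypeptidase found as a suppressor of a weak brassinosteroid receptor mutant. It held 1 centre, in the 336 bp peak chr4:14944208-14944543, 247 bp from its lower edge.

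Genes of the pathway that supplies sinapoylglucose had body centres about as often as genes of like length. Of 21 genes from phenylalanine to sinapoylglucose and the lignin branch, 7 (33.3%) had a body centre, against a sum of 6.57 for genes of like length. These were PAL3, a phenylalanine ammonia-lyase gene (617 bp), C4H, cinnamate 4-hydroxylase (804 bp), LysoPL2, caffeoyl shikimate esterase (1030 bp), FAH1, ferulate 5-hydroxylase (337 bp), CCR1, cinnamoyl-CoA reductase (343 bp), ALDH2C4, the aldehyde dehydrogenase that yields sinapate (376 bp), and UGT84A1 (489 bp). UGT84A1 to UGT84A4 encode glucosyltransferases that form hydroxycinnamate glucose esters, and the other 3 had no body centre. With flanks the count was 8 against 8.59. As other families of secondary metabolism, only UDP-glycosyltransferase (UGT) and beta-glucosidase (BGLU) genes were set beside SCPL genes, with no test of the difference. UGT genes had a body centre in 15 of 58 cases (25.9%), against a sum of 14.7. BGLU genes had one in 3 of 40 (7.5%), against 14.0. SCPL genes, with 8 of 49 (16.3%) against 17.1, lay between these families. The share over all protein-coding genes was 26.9%.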

How the data were processed

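ChIP-seq was done on seedlings, and 1 of the 7 samples, ZF-DDR5 replicate 1, has the peak list analysed here. The authors deposited it as other values than counts: chromosome, start and end of 9999 intervals, with no score or signal. Per the submitters' processing notes, fastp 0.20.1, Bowtie2 2.4.2, SAMtools, Picard 2.25.6, deepTools 3.5.1 and build TAIR10 were used. The sources used here do not give the peak caller, its threshold, the control or any pooling of replicates. Each affects which genes carry a peak.

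Peaks were reduced to their centres and assigned to RefSeq genes of TAIR10.1, a table whose build differs in name, so no gene coordinates are printed. Moving the peaks by 200 bp or more lowered the centres in protein-coding genes to at most 8314, against 8493 unmoved. Members were compared with the 200 nearest genes in length, as a description. The counting was tested on simulated data. No genome sequence was used and no sequence is printed. The members, lists and classes were chosen with earlier results of these data known. Every member with a body centre is named. Alternatives covered the peak set, overlap, flank width, length matching, cluster definition and membership. Python 3.11.15, pandas 2.3.3, numpy 2.4.6 and scipy 1.17.1 were used.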

Additional observations from a re-analysis of the deposited data

How the results depend on the processing

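Over 42 alternatives, 39 left a count within 1.5 times its main value or a ratio within the Wilson interval of its main value, and 0 turned a ratio above 1. These bounds are wide, and part of the agreement was fixed in advance. Asking for at least 50% of the peak width inside is nearly the same rule as a centre inside, and it repeated every main value. Members in gene-poor windows held no centre, so leaving them out could not change the counts of 8 and 11. The 10 alternatives on membership and on neighbours within 100 kb were chosen after seeing the data. The ratio of SCPL genes with a body centre to genes of like length, 0.468, lay between 0.411 and 0.577, and that with flanks, 0.512, between 0.401 and 0.571. Both upper values came from neighbours within 100 kb in place of genes of like length. The count of acyltransferase-like tandem genes with a body centre was also 0 with any overlap of at least 1 bp. Of its 5 alternatives, the wider peaks and the stricter clusters (13 and 12 genes) could not give more than 0 by construction. Taking the wider 50% of the peaks, which removes peaks by construction, gave 4 members with a body centre in place of 8, 5 with flanks in place of 11, and 3 single genes in place of 5. A stricter threshold was not run, since the list has no score, and depth is unknown. No paired analysis was possible because only 1 peak list was analysed here.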
